A study of Mus musculus with 9 samples.

Results

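The introns of 10 genes of the heat shock chaperone system were examined in the mouse embryonic stem cell line v6.5. The members were every intron that the authors' deposited table lists under Hsp90aa1, Hsp90ab1, Hsp90b1, Hspa8, Hspa5, Hspa9, Hspa4, Hsph1, Hspd1 or Hsf1. Introns were taken by gene name and not by a measured value, but the genes were chosen with earlier results of these data known. They came to 67 introns of 10 genes, out of 22228 introns of 7016 genes in the whole table. The number of listed introns per gene ran from 1 in Hspa5 to 12 in Hspa9, and these numbers are the authors' own, which do not count introns from the start of a transcript.

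KH-CB19, which inhibits Clk kinases, was given to the cells in dimethyl sulfoxide (DMSO), and control cells had DMSO only; harvest followed immediately (0 h) or 2 h later. The 4 groups were therefore DMSO at 0 h, KH-CB19 at 0 h, DMSO at 2 h and KH-CB19 at 2 h, all in the same unmodified cell line, with 2 libraries each that the labels describe as biological replicates. Polyadenylated RNA was sequenced with strand kept. A further untreated library was not analysed here. The table holds means over the 2 libraries of a group, so every level below is the authors' mean, without a value per library or a spread between them, and p-values come only from the authors' own comparisons.

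Chaperones bind proteins that are not, or not yet, folded. HSP70 proteins bind short hydrophobic stretches in a cycle driven by ATP, HSP110 proteins release the nucleotide from HSP70, HSP90 proteins act later on partly folded clients such as kinases and hormone receptors, and HSP60 forms a closed folding chamber inside mitochondria. Hsf1 is the transcription factor that drives many of these genes after heat or other protein stress. A detained intron is one that remains in a polyadenylated transcript whose other introns have been removed, and such transcripts are usually kept in the nucleus. The targets of Clk kinases include the SR proteins, which are splicing factors, and the design asks how their inhibition changes such introns.

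The observed 0 h means summed to 1286589 reads over the table in DMSO and 1002850 reads in KH-CB19. The members held 33823 of these reads in DMSO and 31933.5 in KH-CB19, of which all but 3580.5 and 2970.5 lay in Hsp90ab1. The RNA integrity number ran from 8.8 to 9.4 over the 8 libraries. Of 15 marker genes of embryonic stem cells, 14 had introns in the table, Pou5f1 and Nanog among them and Sox2 not. Of 8 fibroblast markers only Fn1 had an intron there, and of 11 markers of germ layers and trophoblast none did, although the table lists introns and a gene without listed introns may still be transcribed.

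At 0 h the table sets the observed mean of each intron against an expected mean. How the expected mean was made is not given in the sources used here, but 2 of its properties can be read from the values. In the 9 member genes with at least 5 introns, expected reads ran with intron length (Spearman's rho from 0.94 to 1, median 1, across the introns of a gene). The expected reads of Hsp90ab1 also summed to its observed reads, 30241.5 against 30242.5 in DMSO, and the same held for Hspa8 (365.5 and 365.5), Hspd1 (836.5 and 836.5) and Hsp90aa1 (209.5 and 209). In Hsp90b1 the observed sum was higher, 320.5 against 202 reads, and in Hspa4 616.5 against 397. Sums equal within 0.5% occurred in 955 of 6935 genes (13.8%) and observed sums above the expected in 5857 (84.5%). Where the sums are equal, a ratio of observed to expected compares an intron with the other introns of its own gene. The calls within such a gene are not independent of each other. For genes with unequal sums, the sums do not show what the ratio compares, and their calls are not taken as independent either.

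By the adjusted p in the authors' deposited table (below 0.05), 18 of the 67 member introns (26.9%) were above expectation in DMSO at 0 h, 21 (31.3%) were below and 28 were not called. Over all introns with a DMSO value the authors' deposited table called 39.1% in either direction, 28.2% above and 10.9% below, so the share of members above lay near the background while the share below was higher. Without Hsp90aa1, Hsp90ab1, Hspa8, Hspd1 and Hspa9, which have processed copies, and Hspa5, the share below was 4 of 29 (13.8%), near the background, the share above was 8 of 29 (27.6%), and the median log2 ratio was 0.32. The genes left out include Hsp90ab1, Hspa8, Hspd1 and Hsp90aa1, whose expected reads sum to their observed reads. In these genes copies and equal sums occur together and cannot be told apart here. Hspa9 has a copy but unequal sums (760.5 observed and 679.5 expected reads in DMSO), with 5 of its 12 introns below. The part of copies or of equal sums was not tested. In KH-CB19 at 0 h, 15 of the 59 members with a value (25.4%) were above and 17 (28.8%) below, where the table as a whole had 36.5% in either direction, 27.6% above and 8.93% below. The other 8 members were marked as low in reads in KH-CB19, and none of them exceeded a mean of 23 reads in DMSO. The median log2 ratio of observed to expected was 0.01 over members and 0.53 over all introns in DMSO, and −0.10 and 0.60 in KH-CB19. No set test was made of these shares, and the introns of Hsp90ab1, Hspd1 and Hspa9 hold 13 of the 21 calls below.

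**Figure D1:**
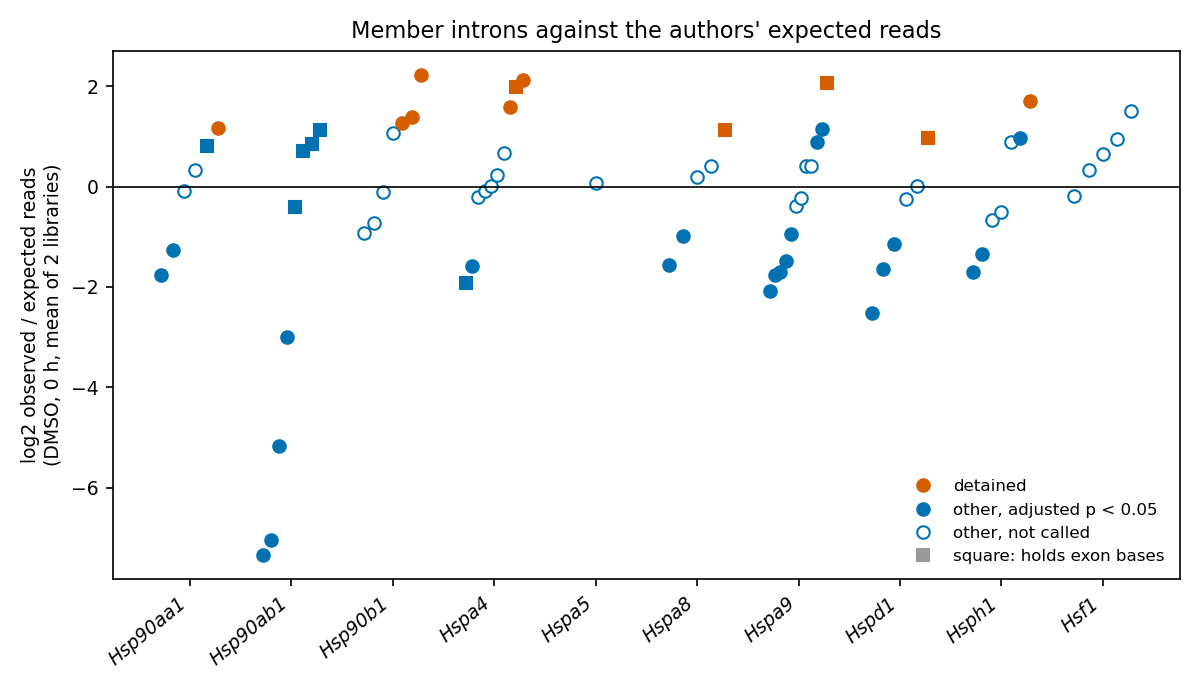
Log2 ratio of observed to expected reads of each member intron in DMSO at 0 h, by gene, with detained introns in orange, open circles for introns not called in the authors' deposited table and squares for introns that hold exon bases. Hsp90ab1 reaches furthest below 0, with 2 introns under −7, while the introns of Hsf1 and the single intron of Hspa5 are not called.

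The gene models tell what lies in these introns. Of the 67, 64 could be placed on the GENCODE M21 models of their gene, 51 matched an annotated intron exactly, and 10 (15.6%) contained exon bases of the gene's main coding transcript, against 3.88% of all placed introns. Of the 10 that held exon bases, 8 were above expectation in DMSO at 0 h, 2 were below, and their median log2 ratio was 0.91. Of the 54 placed members without exon bases, 10 (18.5%) were above, 19 (35.2%) below and 25 not called, with a median of −0.20. Over the whole table the same medians were 0.80 and 0.50, so the median of members with exon bases lay near that of all such introns. Over all introns with a DMSO value, whatever their kind, 28.2% were above and 10.9% below. Shares called among all introns of each kind are not given here. Within 1 listed intron the table does not separate reads of the spliced transcript over those exon bases from reads of the intron. Results for introns that hold exon bases are therefore marked below. Among the 51 members that match an annotated intron exactly, 10 (19.6%) were above and 19 (37.3%) below in DMSO.

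Hsp90ab1 held the lowest ratios of all members. This gene, the constitutive cytosolic HSP90, lies on the minus strand of chromosome 17 and had 8 introns in the table, with none classed as detained. Intron 21 (chr17:45705495-45706188, mm9, 694 bp) had the highest observed DMSO mean of all 21568 introns with a value, 13391.5 reads against 6135 expected, and 15429 reads against 5876 expected in KH-CB19. It spans introns 17 and 19, the 269 exon bases between them and 17 exon bases beyond intron 19, so that 286 of its bases are exon. Introns 17 and 19, each listed on its own, had 114 and 98 observed reads in DMSO, against the 13391.5 of intron 21. The part of the exon bases in the reads of intron 21 was not tested. Introns 5, 14 and 9 also hold exon bases (93, 137 and 45) and had 5340.5, 8865.5 and 2375.5 observed reads in DMSO.

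The 4 introns of Hsp90ab1 without exon bases were all far below expectation. Intron 6 (chr17:45708127-45708361, 235 bp) had 18 observed reads in DMSO against 2927 expected, and 16.5 against 2804 in KH-CB19. Per the authors' deposited table its log2 ratio was −7.35 in DMSO (adjusted p = 3.7e-191) and −7.41 in KH-CB19. Intron 2, which does not lie between coding exons, had 39.5 reads in DMSO and 23.5 in KH-CB19, intron 17 had 114 and 107, and intron 19 had 98 and 74.5. Together the 4 introns with exon bases held 29973 of the gene's 30242.5 observed DMSO reads (99.1%), and the 4 without held 269.5. Introns 17 and 19 lie inside intron 21, so these 2 parts overlap. Whether a read was counted in both is not given in the sources used here.

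Intron 9, with 45 exon bases, was below expectation too, with a log2 ratio per the authors' deposited table of −0.41 in DMSO and −1.40 in KH-CB19. Per length, the 4 introns without exon bases were not low among the members: introns 2 and 6 had 75.7 and 76.6 observed reads per kb in DMSO, close to the 74.9 of Hsp90aa1 intron 6, and intron 17 had 1009, the highest of any member without exon bases. The expected reads of the gene summed to its observed reads, and that sum includes the reads of the 4 introns with exon bases. The part of this in the low ratios was not tested. The starts of introns 17 and 5 are shown, an exact annotated intron and a listed intron that holds exon bases. Both starts read GT, and the stretches do not show the exon bases inside intron 5. The 15 bases before and the 15 bases after the listed start are from the GENCODE M21 transcript models (GRCm38), with capitals for the first 6 bases after it.
Hsp90ab1 intron 17: tctactatatcactgGTATGTcggagattg
Hsp90ab1 intron 5: tctaatgcttcagatGTGAGTattctgttg

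**Figure D2:**
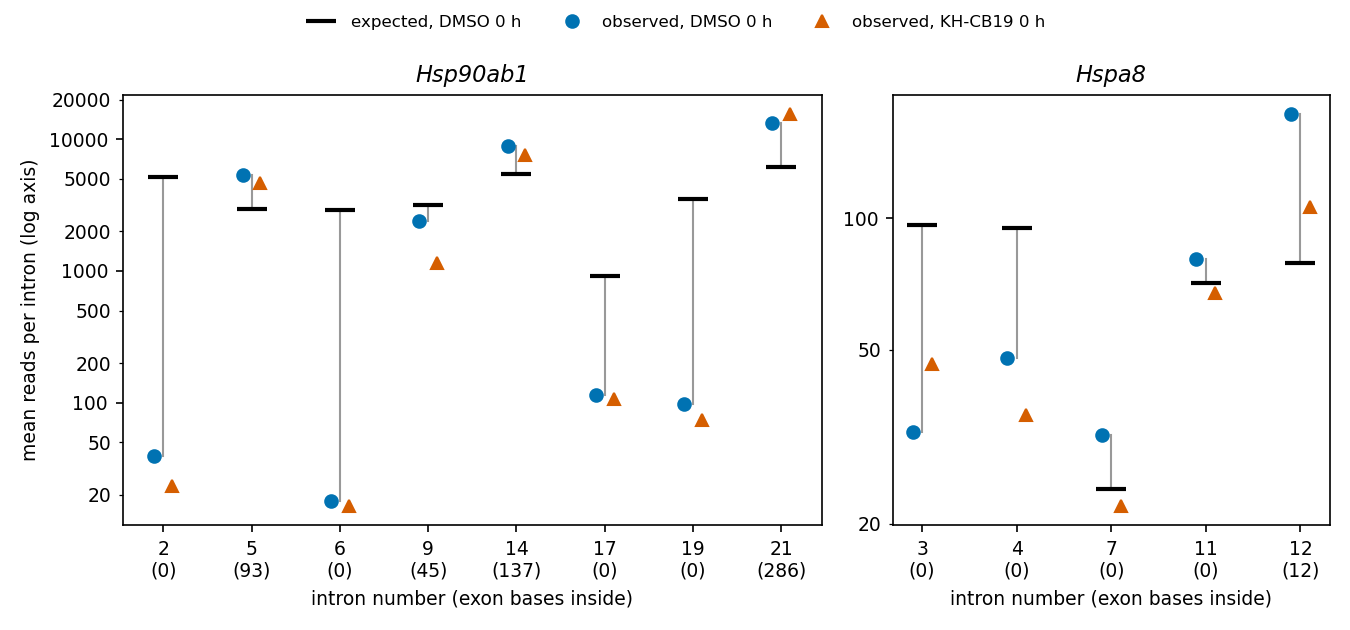
Observed reads per intron in DMSO (circles) and KH-CB19 (triangles) at 0 h with the DMSO expectation (bars), on log axes, for Hsp90ab1 and Hspa8, with the number of exon bases inside each intron in brackets. In Hsp90ab1 the 4 introns without exon bases have 18 to 114 observed DMSO reads under expectations of 908.5 to 5175.5, while in Hspa8 observed reads climb from intron 7 to intron 12.

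Hsp90aa1, the stress-inducible cytosolic HSP90, lies on the minus strand of chromosome 12 and had 6 introns in the table. Intron 5 was the lowest, with 17 reads against 58 expected in DMSO and 17.5 against 40.5 in KH-CB19. The authors' deposited table gave it log2 ratios of −1.77 (adjusted p = 6.17e-05) and −1.21 (adjusted p = 0.0188). Intron 11 (chr12:111931083-111931229, 147 bp, an exact annotated intron and the 8th of 10 in the main transcript) was the highest and was classed as detained, with 56 reads against 25 expected in DMSO and 34.5 against 17 in KH-CB19. The authors' deposited table gave it an adjusted p of 0.00691 in DMSO and 0.0667 in KH-CB19, so it passed only in DMSO, which does not show that the groups differ.

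Hsp90b1, the HSP90 of the endoplasmic reticulum, showed 3 detained introns near the end of the gene. Intron 19 (chr10:86156259-86156658, 400 bp, the 13th of 17) had 96 reads against 20.5 expected in DMSO, 4.68-fold above, and 77 against 15 in KH-CB19. Its log2 ratios per the authors' deposited table, 2.23 (adjusted p = 1.41e-09) and 2.36 (adjusted p = 1.28e-08), included the highest of the members in DMSO, while in KH-CB19 Hspa9 intron 8 (2.57) and Hspa4 intron 33 (2.53) were higher. Intron 20 (the 14th) had 81 reads against 33.5 expected and intron 24 (the 16th) 52.5 against 20, both above expectation in both groups.

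The 4 other introns of Hsp90b1 were not called, with log2 ratios from −0.93 to 1.07 in the authors' deposited table. All 3 detained introns match annotated introns without exon bases, and intron 24 lies inside an exon of an annotated retained-intron transcript. The start of intron 24 is shown beside that of intron 14, which was not called (10.5 reads against 5 expected in DMSO), because both lie inside retained-intron models. Capitals mark the first 6 bases of the intron, of which 4 in intron 24 and 6 in intron 14 equal the consensus GTAAGT, against a mean of 4.33 over the 1644 introns of the table whose splice site letters could be read.
Hsp90b1 intron 24: gaccctgaagcacagGTTTGTgtgccctta
Hsp90b1 intron 14: tttgtcaaaggtgttGTAAGTatctgaaga

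Hspa8, the constitutive cytosolic HSP70, lies on the plus strand of chromosome 9, and reads per kb of its 5 listed introns climbed along the gene in DMSO. Observed reads per kb in DMSO were 109 in intron 3, 166 in intron 4, 278 in intron 7, 383 in intron 11 and 737 in intron 12. In KH-CB19 they were 157, 122, 191, 321 and 453 in the same order, so that intron 3 lay above intron 4 there. Intron 3 was below expectation in DMSO, with 32.5 reads against 96.5, and the authors' deposited table gave it an adjusted p of 5.61e-06 there and of 0.0892 in KH-CB19 (46.5 reads against 73.5). Intron 4 was below in both groups, with 48 reads against 95 and 35.5 against 72.

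Intron 12 of Hspa8 (chr9:40612014-40612247, 234 bp) was above expectation and classed as detained, with 172.5 reads against 79 in DMSO and 106 against 60 in KH-CB19. The authors' deposited table gave it log2 ratios of 1.13 (adjusted p = 3.32e-05) and 0.82 (adjusted p = 0.0130). It begins 12 bases before the annotated end of its exon and lies inside an exon of the retained-intron model Hspa8-208. Introns 3, 4, 7 and 11 lie inside such models too, so all listed introns of the gene do. The donor sites of introns 4, 7, 11 and 12 are shown because the listed starts differ in kind. Capitals mark the first 6 intron bases in introns 4, 7 and 11. In intron 12 they mark the 12 exon bases inside the listed intron, after which the annotated intron starts with gta.
Hspa8 intron 4: ccaacacagtttttgGTAAGTcgccagcat
Hspa8 intron 7: gcgtacctcggaaagGTGGGTttttttttt
Hspa8 intron 11: ttgcctatggtgcagGTAAATacatacagc
Hspa8 intron 12: gacaaccagcctggtGTACTCATTCAGgta

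The listed start of intron 12 also reads GT. Reads of Hspa8 can also be shared: 9 processed pseudogenes in the GENCODE M21 annotation match at least 50% of its mRNA at 90% identity or more, the closest at 99.7%. The same search found 3 for Hspd1 (closest 99.0%), 2 for Hsp90aa1 (99.4%), 1 each for Hsp90ab1 (91.0%) and Hspa9 (92.1%), and none for the other 5 genes. Such copies come from spliced mRNA and lack the introns, and how reads that match several places were handled is not given in the sources used here. Exon bases inside listed introns are where such sharing could enter, and its part in these values was not tested.

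The other HSP70 members lay in 2 organelles. Hspa5, the HSP70 of the endoplasmic reticulum (BiP), had 1 intron in the table, with 10 reads against 9.5 expected in DMSO and too few for a value in KH-CB19. Hspa9, the mitochondrial HSP70 (mortalin), had 12, of which 3 were above and 5 below expectation in DMSO. Intron 8 of Hspa9 (chr18:35111002-35112049, 1048 bp) was detained, with 258 reads against 61.5 in DMSO and 329 against 55.5 in KH-CB19. Per the authors' deposited table its log2 ratios were 2.07 (adjusted p = 3.02e-16) and 2.57 (adjusted p = 8.82e-25), and it holds 58 exon bases.

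At the other end in Hspa9, intron 13 had 16 reads against 67.5 in DMSO and 14 against 61 in KH-CB19, log2 ratios of −2.08 and −2.12 per the authors' deposited table (adjusted p = 9.47e-07 in DMSO). Introns 17 and 26, without exon bases, were called above expectation in DMSO only, with 109.5 reads against 59.5 and 42 against 19. In KH-CB19 they lay on the same side, with 78 reads against 53.5 and 34 against 17.5. The authors' deposited table gave them adjusted p-values of 0.156 and 0.0877 there. Intron 2 was the only member called in KH-CB19 and not in DMSO, with 33.5 reads against 66 and an adjusted p of 0.0155 in the authors' deposited table. In DMSO it had 62 reads against 73. Of the 59 members with both values, 5 were called in DMSO alone.

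The HSP110 genes, Hspa4 and Hsph1, carried their detained introns in the later part of the gene. In Hspa4, introns 27, 30 and 33 were detained. Intron 30 (chr11:53076502-53078535, 2034 bp, the 16th of 18) had 203 reads against 46.5 in DMSO and 171 against 41.5 in KH-CB19, with log2 ratios of 2.13 (adjusted p = 9.35e-15) and 2.04 per the authors' deposited table. Intron 27, the 15th, had 84.5 reads against 28 and 63.5 against 25.

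Intron 33 of Hspa4 holds 42 exon bases and had 85.5 reads against 21.5 in DMSO and 109.5 against 19 in KH-CB19. Intron 26, directly upstream of intron 27, was below expectation in both groups, with 10 reads against 30 and 10.5 against 27, so neighbours lay on opposite sides. Intron 14 (5283 bp, with 35 exon bases) was the lowest of the gene, with 20.5 reads against 77.5 in DMSO and a log2 ratio of −1.92 per the authors' deposited table (adjusted p = 9.75e-07).

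In Hsph1, intron 13 (chr5:150423259-150426039, 2781 bp, the 12th of 18) was detained, with 156.5 reads against 48 in DMSO and 107.5 against 35 in KH-CB19. Per the authors' deposited table its log2 ratios were 1.71 (adjusted p = 3.98e-09) and 1.62 (adjusted p = 1.57e-06). Introns 9 and 12 upstream of it were below expectation in DMSO, with 10.5 reads against 34 and 13 against 33, and had no value in KH-CB19. Intron 15 was above in both groups, with 49 reads against 25 and 37.5 against 18.

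Hspd1, which encodes mitochondrial HSP60, had its detained intron near the start. Intron 6 (chr1:55141507-55143609, 2103 bp) had 478 reads against 244 in DMSO and 492 against 227.5 in KH-CB19, and 123 of its bases are exon. Per the authors' deposited table its log2 ratios were 0.97 (adjusted p = 3.18e-06) and 1.11 (adjusted p = 0.00138). The next intron, 7, was the lowest, with 24 reads against 137.5 and 23.5 against 129, log2 ratios of −2.52 (adjusted p = 1.55e-14) and −2.46 per the authors' deposited table. Introns 8 and 9 were also below, and introns 10 and 11 were near expectation, with 111.5 reads against 132.5 and 154.5 against 153 in DMSO.

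Hsf1, the regulator, had 5 introns, all exact matches, with 10 to 61 observed DMSO reads and log2 ratios from −0.19 to 1.51 in the authors' deposited table. None was called in either group, and none was detained. Intron 8, the shortest (105 bp), had 10 reads against 3.5 expected, which was not called (adjusted p = 0.194 in the authors' deposited table).

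In DMSO, reads per kb tended to climb along the members with at least 5 introns without exon bases, other than Hsf1. Among members without exon bases, observed DMSO reads per kb climbed from the first to the last listed intron without exception in Hsp90aa1 (49 to 381 reads per kb over 5 introns) and Hspd1 (33.1 to 177 over 5 introns). The rank correlation of position with reads per kb was 0.71 in Hsph1, 0.60 in Hsp90b1, 0.56 in Hspa9 (11 introns), 0.43 in Hspa4 and −0.20 in Hsf1. Over the 1236 genes of the table with at least 5 such introns the median was 0.46, and 972 (78.6%) were above 0, so a climb towards the end of the gene was common and not particular to chaperone genes.

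Introns of a gene share their libraries, and shorter introns also had more reads per kb, with a median rank correlation with length of −0.61 over those genes, −0.70 in Hsp90aa1 and 0.56 in Hspd1. The part of length in the order was not tested. In KH-CB19 the rank correlation was 0.90 in Hspd1, 0.74 in Hsp90b1, 0.46 in Hspa4, 0.41 in Hsph1 and 0.39 in Hspa9.

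**Figure D3:**
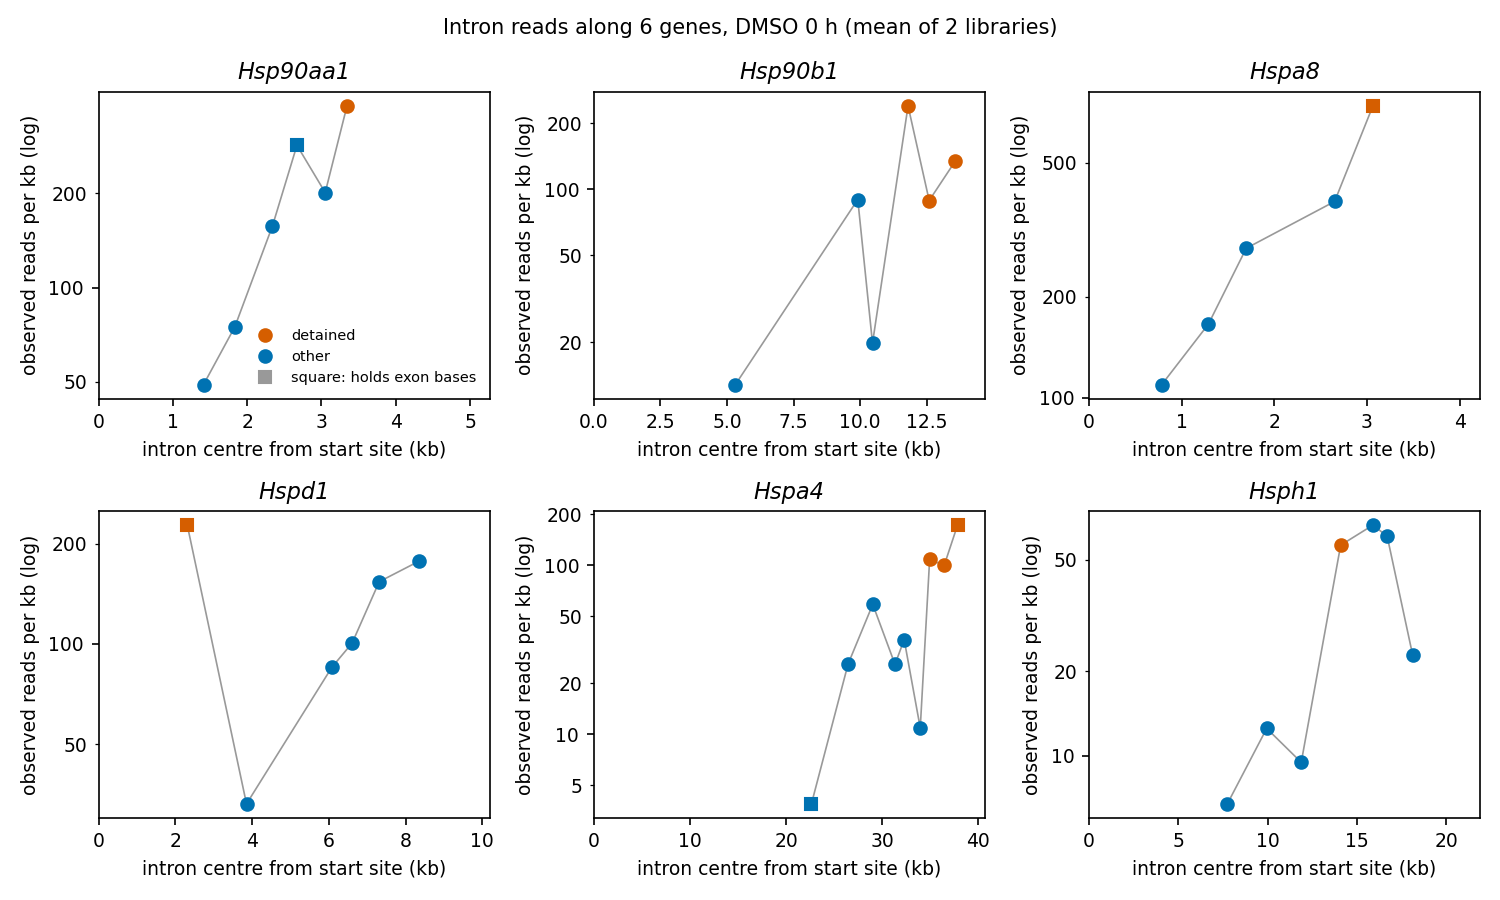
Observed reads per kb in DMSO at 0 h (log axis) against the distance of the intron centre from the start site in kb, for 6 genes, with detained introns in orange and introns that hold exon bases as squares. Hspa8 climbs from 109 to 737 reads per kb, and the detained introns of Hsp90b1 and Hspa4 lie in the last stretch of the gene.

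The authors classed 11 of the 67 members (16.4%) as detained, near the 15.5% of the whole table. They lay in 7 of the 10 genes, with none in Hsp90ab1, Hspa5 or Hsf1. Of the 11, 7 matched an annotated intron exactly and 4 held exon bases (Hspa4 intron 33, Hspa8 intron 12, Hspa9 intron 8 and Hspd1 intron 6), while in the table as a whole 244 of 2983 placed detained introns (8.18%) and 454 of 15026 others (3.02%) did. Inside an exon of a retained-intron model lay 13 of the 64 placed members (20.3%, against 7.74% of the table), and 2 of the 11 detained ones (18.2%), Hsp90b1 intron 24 and Hspa8 intron 12.

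The 7 detained members with an exact match lay late in the transcript, at 0.67 to 0.94 of the intron count of the main transcript (median 0.82), where the 40 other members with a position had a median of 0.59. Of the 4 detained members without such a match, Hspa9 intron 8 and Hspd1 intron 6 lay early, with centres at 14.7% and 22.7% of the gene's span, and Hspa8 intron 12 and Hspa4 intron 33 late, at 72.7% and 93.1%. Over the table the medians were 0.75 for 2364 detained introns and 0.62 for 13533 others. Detained members had a median length of 782 bp and the other members of 613.5 bp, and both were shorter than the medians of the table, 1562 and 2044 bp. A class made from the 0 h values alone, at least 2-fold above expectation with a call in both groups, held 9 members (13.4%, against 19.1% of the table), of which 8 were detained and the other was Hsp90ab1 intron 21.

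The 2 groups harvested at 0 h gave nearly the same picture. Of the 59 members with both values, 15 were above expectation in both groups, 16 below in both and 22 not called in either, while none was above in 1 group and below in the other. The 2 ratios lay on the same side of 0 in 57 of the 59. The median size of the difference between the log2 ratios was 0.19.

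The level itself, as the log2 ratio of observed KH-CB19 to DMSO reads less the median of −0.32 over the 18080 introns with both values, had a median of −0.06 over members. It ran from −0.73 in Hsp90ab1 intron 9 (2375.5 to 1145.5 reads, with 45 exon bases) to 0.84 in Hspa8 intron 3 (32.5 to 46.5 reads). Over all introns the middle 50% of this ratio lay between −0.19 and 0.21 and the middle 95% between −0.60 and 0.68, and these 2 of the 59 members (3.39%) lay outside the latter range, which leaves out 5% of all introns. No test of this difference could be made on group means.

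**Figure D4:**
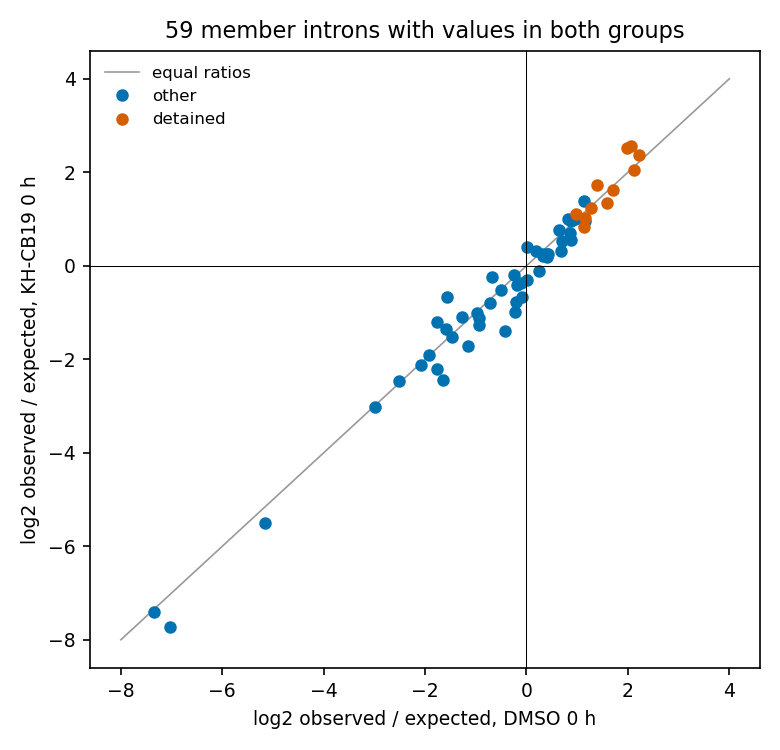
Log2 ratio of observed to expected reads in KH-CB19 against DMSO at 0 h for the 59 member introns with both values. The points follow the line of equality, with a median size of the difference of 0.19 and none called above in 1 group and below in the other.

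After 2 h, when only detained introns have values, none of the 11 members passed the adjusted p of the authors' DESeq comparison in the authors' deposited table, where 9.64% of the 3454 detained introns did (5.47% above, 4.17% below). Taking the adjustment to be Benjamini-Hochberg over those 3454 introns, 1 of the 11 had an unadjusted p below 0.05, the smallest being 0.0142. The normalised means ran from 35.1 to 428 reads in DMSO and from 30.3 to 361 in KH-CB19. With 11 introns at that background, few calls or none can occur, and none is not a result about the members.

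The farthest from 0 was Hspa4 intron 27, with 52.5 reads in DMSO and 109 in KH-CB19, a log2 ratio of 1.05 per the authors' deposited table (adjusted p = 0.106). The 2 other detained introns of Hspa4 had 136 and 127 reads (intron 30) and 75.1 and 89.5 (intron 33), log2 ratios of −0.10 (adjusted p = 0.904) and 0.25 (adjusted p = 0.754) per the authors' deposited table. The 3 introns of this gene thus had unequal values, and whether they differ was not tested.

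Among the HSP90 genes, Hsp90aa1 intron 11 had 41.2 and 30.3 reads, a log2 ratio of −0.44 per the authors' deposited table (adjusted p = 0.614). Hsp90b1 had 59.2 and 67.2 reads in intron 19, 53.4 and 42.6 in intron 20 and 35.1 and 37.4 in intron 24, with log2 ratios of 0.18, −0.33 and 0.09 per the authors' deposited table (adjusted p = 0.825, 0.696 and 0.983). Neighbouring detained introns of Hsp90b1 thus lay on both sides of 0.

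None of the HSP70, HSP60 and Hsph1 introns passed either. Hspa8 intron 12 had 130 and 159 reads and Hspa9 intron 8 had 296 and 322, log2 ratios of 0.30 (adjusted p = 0.532) and 0.12 (adjusted p = 0.817) per the authors' deposited table. Hspd1 intron 6 had 428 and 361 and Hsph1 intron 13 had 136 and 155, log2 ratios of −0.25 (adjusted p = 0.670) and 0.19 (adjusted p = 0.749) per the authors' deposited table.

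Over the 11 members 7 ratios were above 0 and 4 below, with a median of 0.12, and the median over all detained introns was −0.0016. Their median size was 0.25, against 0.34 over all detained introns. Among the 292 called detained introns with a 2 h mean of 30 to 500 reads, the median size was 1.13 and the smallest 0.57. These sizes are of introns that passed and set no limit for the members, where 1.05 in Hspa4 intron 27 did not pass.

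**Figure D5:**
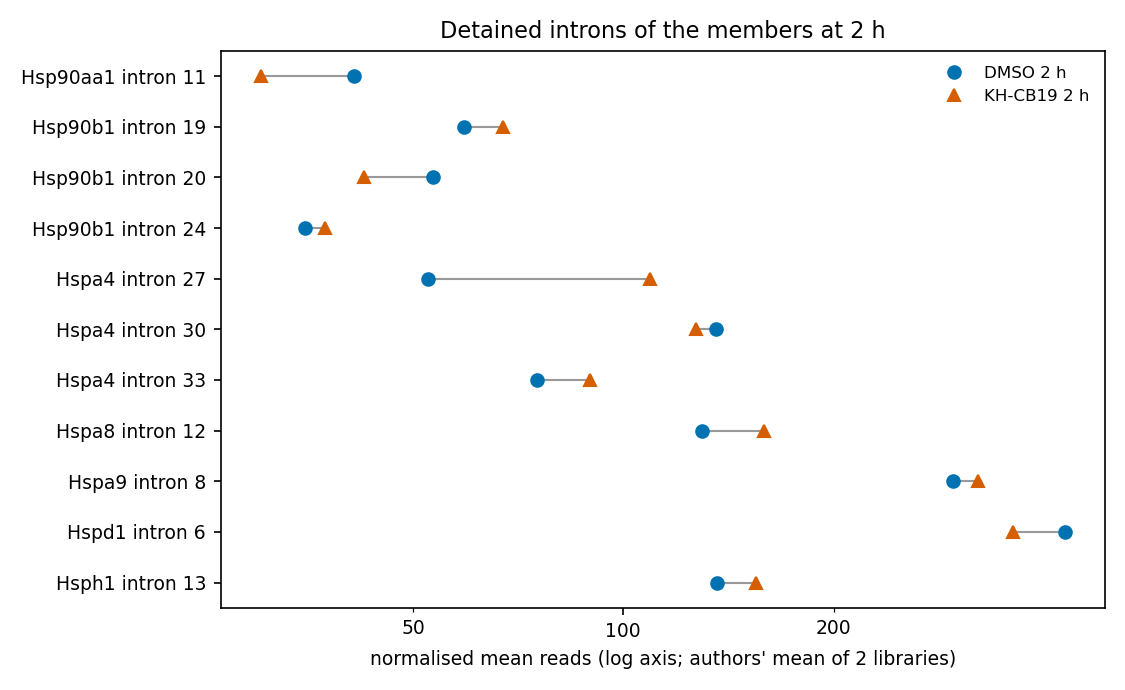
Normalised mean reads of the 11 detained member introns at 2 h in DMSO (circles) and KH-CB19 (triangles), on a log axis. The widest gap is that of Hspa4 intron 27, 52.5 against 109 reads, and no pair passed the adjusted p of the authors' deposited table.

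Other genes of the chaperone network were read from 7 lists of 105 genes, of which 71 had introns in the table. Of their 268 introns with a DMSO value, 80 (29.9%) were above expectation and 41 (15.3%) below, and 52 of 278 (18.7%) were detained, in 35 genes. The whole table had 28.2%, 10.9% and 15.5%. HSP40 cochaperones, which hand clients to HSP70, had 21 introns above and 10 below of 58, and cochaperones of HSP90 and HSP70 19 and 9 of 72. Chaperonin and prefoldin subunits had 17 above and 17 below of 72, and the chaperones of the endoplasmic reticulum 8 and 5 of 29. Other heat shock proteins had 6 above and 0 below of 17, and mitochondrial import and quality control genes 7 and 0 of 16. The list of Hsf2, Hsf4 and Hsbp1 had 2 and 0 of 4. Hsf2, another heat shock factor, had 2 detained introns (10 and 12), unlike Hsf1.

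At 2 h, 2 of the 52 detained introns of these lists rose and none fell, where 5.47% of all detained introns rose and 4.17% fell. Intron 14 of Dnajc7, an HSP40 cochaperone, had 261 reads in DMSO and 577 in KH-CB19, a log2 ratio of 1.15 per the authors' deposited table (adjusted p = 0.000582). Intron 10 of Timm44, which tethers mitochondrial HSP70 to the import channel, had 80.6 and 149 reads, a log2 ratio of 0.89 per the authors' deposited table (adjusted p = 0.0109). Hspa9, the HSP70 that Timm44 tethers, had 296 and 322 reads in its detained intron, as given above.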

How the data were processed

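Polyadenylated, strand-specific RNA-seq of 8 libraries was deposited as 1 table of introns. Reads were handled on build mm9 with TopHat2 2.0.9, Bowtie 1.0.0 and Cufflinks 2.1.1, with bedtools 2.17.0 and SAMtools 0.1.19 and the test DESeq, per the submitters' processing notes. Per the file headers, the authors gave observed and expected mean counts per intron and group at 0 h, a log2 ratio and an adjusted p-value, with a word for low coverage in place of values with few reads. All 21568 observed DMSO means were multiples of 0.5, as means of 2 unscaled counts would be. For detained introns, and per the file headers, the authors also deposited normalised mean reads at 2 h (a signal, not whole counts), their log2 ratio and its adjusted p-value, taken here to come from DESeq. The choice of introns and of the detained class, and the making of expected counts, are not given in the sources used here.

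A planned count test could not be made on group means, so the authors' adjusted p-values (threshold 0.05) were used as deposited. A count model with replicates would also give spreads, which are missing here, and every p-value rests on only 2 libraries a group. Those at 0 h set observed against expected reads within a group and do not compare the groups. The member genes and the other gene lists were chosen with earlier results of these data known. Named with values were every detained member, the highest and lowest called intron of each member gene in DMSO, and other chaperone introns that passed at 2 h. Introns beyond these were chosen after their values were seen.

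Introns were placed on GENCODE M21 models where at least 2 introns of a gene had exactly the spacing and lengths of annotated ones, and unmatched introns only between matched ones or within 500 bp. Where their letters could be read, 1635 of 1644 introns (99.5%) began with GT or GC and ended with AG. Coordinates are those of the authors, counted from 1. Copies were searched with BLAST 2.17.0. Other steps used Python 3.11.15, pandas 2.3.3, NumPy 2.4.6 and matplotlib 3.10.9, and the counting of calls was tested on simulated data. Alternatives were a threshold of 0.01, a mean of at least 50 reads, pseudocounts of 0.1, 1 and 10, other centrings and members left out.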

Additional observations from a re-analysis of the deposited data

How the results depend on the processing

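No paired analysis was possible because only means over the 2 libraries of a group were used, and for the same reason no library could be left out in turn. The medians over members lie near 0 and their sign is not stable: it turned in 6 of 17 alternatives in DMSO (to between −0.24 and −0.04) and in 5 of 17 in KH-CB19 (to between 0.03 and 0.32). Leaving out the genes with processed copies (Hsp90aa1, Hsp90ab1, Hspa8, Hspd1 and Hspa9) and Hspa5, for which the search found none, and so 38 of the 67 introns, gave 8 above and 4 below expectation of 29 in DMSO and 8 and 2 of 25 in KH-CB19, with a median log2 ratio of 0.32 in each. Keeping only introns that match an annotated intron exactly, a choice made after seeing the data, gave 10 above in DMSO, 7 above in KH-CB19, a median of −0.24 in DMSO and 7 detained. The KH-CB19 median was 0.18 without Hsp90ab1, 0.21 without Hspd1 and 0.25 as a median per gene. With expected in place of observed reads, the 0 h median of KH-CB19 over DMSO was 0.17. Less the 0 h ratio, the 2 h ratio changed sign in Hsp90b1 intron 24 (−0.14), Hspa4 intron 33 (−0.43) and Hspa9 intron 8 (−0.55), none of which passed the test. The cause was not tested. Depth limits the introns with few reads: the lowest mean with a value was 10, and the 8 members without a value in KH-CB19 had at most 23 in DMSO.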
